A study of Mus musculus with 24 samples.

Results

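The effect of an Atoh1 phosphomutant allele on gene expression was compared between mouse small intestine (SI) and colon. The value described for each gene is a difference of differences, the log2 fold change of 9S/T-A over WT in colon minus the same fold change in SI, here called the product of genotype and tissue. A positive product means that expression in 9S/T-A relative to WT was higher in colon than in SI, and a negative product the reverse. All libraries that carried 1 of the 4 group labels were used, 24 of 24. The groups WT_Atoh1_SI, 9S_T_A_Atoh1_SI, WT_Atoh1_C and 9S_T_A_Atoh1_C held 6 libraries each, numbered 2 to 7, with numbers 2, 5 and 7 from females and 3, 4 and 6 from males. All mice were on a C57BL/6 background, carried CreERT2 expressed from the Atoh1 locus and a tdTomato reporter at Rosa26, and had received a single injection of 3 mg tamoxifen, 24 h before collection. In the 9S/T-A line, serine and threonine residues of ATOH1 that precede proline were replaced by alanine at the endogenous locus, and in the WT line they were intact. Both lines were used as homozygotes at 8 to 16 weeks of age, so the WT controls also carried the Cre insertion. Live EpCAM+ tdTom+ cells were sorted from crypt-enriched fractions of the proximal SI and of the colon, so the samples contained cells that had expressed Atoh1 and any progeny, chosen by the reporter and not by a marker of a single cell type.

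ATOH1 is a basic helix-loop-helix transcription factor that binds E-box DNA motifs and directs intestinal progenitors to the secretory fate. Notch signalling represses it in absorptive progenitors. Secretory cells differ along the gut: Paneth cells, which release antimicrobial proteins at the crypt base, belong to the SI, whereas the colon is rich in goblet cells, which make mucus, and relies on secretory cells at the crypt base of another kind. Enteroendocrine cells, which release hormones, are found in both.

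Library totals ranged from 36 to 65.8 M counts. Levels are given as CPM (counts per M counts of the library, with library sizes scaled by TMM factors), as the lowest, median and highest of the 6 libraries of a group, and they are not corrected for gene length. Epcam was between 890.2 and 1099.8 CPM in every SI library and between 770.4 and 1110.7 CPM in every colon library, with the lowest colon values in the libraries numbered 7. Atoh1 itself (ENSMUSG00000073043, chromosome 6, 64729146 to 64731233) was at 79.1, 86.5 and 121 CPM in WT SI versus 57.7, 74.2 and 90.1 CPM in 9S/T-A SI. Its colon levels were 84.1, 104 and 124 CPM in WT versus 67, 84.9 and 108 CPM in 9S/T-A. The genotypes overlapped in both tissues, and the product was 0.04 (SE 0.17, adjusted p = 0.981). Of 25 leukocyte genes listed, 18 passed the filter on low counts. Without Lyz2, which shares sequence with the Paneth cell gene Lyz1, the other 17 ranged in sum from 104 to 173 CPM in WT SI, from 43.4 to 169 CPM in 9S/T-A SI, from 6.62 to 9.27 CPM in WT colon, and from 4.86 to 8.11 CPM in 9S/T-A colon. In the stromal list, 9 of 22 genes passed, and Col3a1, Lum and Sox10 were at 0 in all 24 libraries. The product was called in 0 of these 27 genes by edgeR (unadjusted p under 0.05 in 2) and in 0 by DESeq2. In sorted bulk samples, fewer cells of a type and less RNA per cell cannot be told apart. Within these lists the leukocyte integrin gene Itgam and the mesenchymal gene Vim were lower in 9S/T-A SI, the only calls in either tissue. The study's design text speaks of 6 mice and says that both tissues were taken from each mouse, and library titles share numbers across tissues. Yet each genotype has 6 numbers in each tissue, and no label ties a library to an animal. The main fit did not pair libraries by number, so its p-values measure the spread between these libraries.

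The product was tested with edgeR's quasi-likelihood test in 17953 genes and called, at a Benjamini-Hochberg adjusted p under 0.05, in 74 of them (0.412%). It was positive in 52 (0.29%) and negative in 22 (0.123%), and 1740 genes had an unadjusted p under 0.05. The split between directions depends on the scaling: with plain library totals in place of TMM factors, 73 genes were called, 65 positive and 8 negative, and the median product of all genes moved from -0.02 to 0.08. The count was 43 when the 4 libraries numbered 7 were left out, 112 without 9S/T-A SI replicate 2, and 257 with DESeq2. Of the 74 genes, 62 were measured in both tissues, meaning a mean of at least 1 CPM in 1 genotype or more of each tissue.

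Most called genes responded in SI. In 48 of the 74 the genotype effect was called in SI alone, 30 lower and 18 higher in 9S/T-A. For these 48 the colon effect did not pass, and its median size on the log2 scale was 0.14 among the 30 and 0.16 among the 18. Over all genes, 280 (1.56%) were called lower and 240 (1.34%) higher in 9S/T-A SI, against 28 (0.156%) lower and 75 (0.418%) higher in 9S/T-A colon. The effect was called in colon alone in 18 genes, 15 higher and 3 lower, and in neither tissue alone in 8. No gene was called in both tissues as well as in the product by edgeR, while DESeq2 placed 4 there, all with opposite directions. The fold changes had opposite signs in 56 of the 74 (75.7%, against 45.9% of all genes tested), and 26 had an unadjusted p under 0.05 in each tissue with opposite signs. Called genes were chosen by the difference between these 2 fold changes, so a higher share of opposite signs follows from the choice. Of the 30 genes that fell in SI alone, 19 had a higher mean in WT colon than in WT SI, as did 11 of the 18 that rose in SI alone, and 2 of the 15 that rose in colon alone. The share over all genes was not computed, and the WT means enter the product that chose these genes. These counts therefore describe the called genes only.

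**Figure D1:**
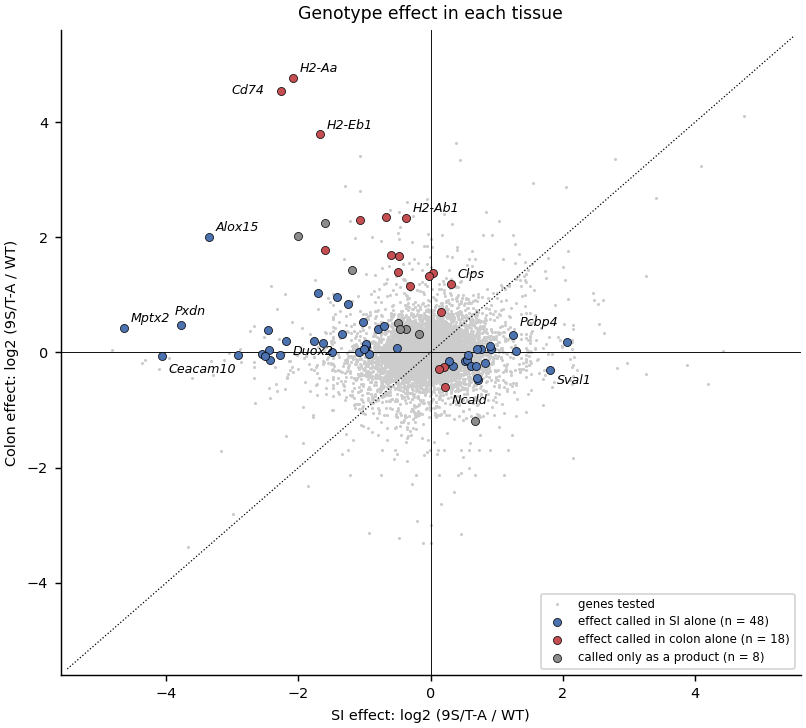
Genotype effect in SI (x axis) against colon (y axis), both as log2 of 9S/T-A over WT, for the genes tested, with called genes coloured by the tissue in which the effect was called and the dotted line marking equal effects. Most genes called in SI alone (n = 48) lie along the horizontal axis at colon effects near 0, and MHC class II genes lie at the upper left. The axes end at 5.6, which leaves out 12 genes, among them 1 called gene, Ear2.

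Genes of epithelial defence at the mucosal surface were among those with the smallest p in the group that fell in SI alone. Mptx2 encodes a mucosal pentraxin, of the family of soluble proteins that bind microbial surfaces. It (ENSMUSG00000079180, chromosome 1, 173274382 to 173277777) was at 769.5, 1099 and 1461 CPM in WT SI versus 21.3, 41 and 92.4 CPM in 9S/T-A SI. The corresponding colon levels were 272, 430.3 and 737 CPM in WT versus 373, 644 and 740.0 CPM in 9S/T-A. In SI every 9S/T-A library was below every WT library, whereas in colon the genotypes overlapped. The log2 fold change was -4.64 for SI (SE 0.31, adjusted p = 2.24e-10) against 0.42 for colon (SE 0.26, adjusted p = 0.889), a product of 5.06 (SE 0.40, adjusted p = 3.38e-08). The paralog Mptx1 was far higher in colon, at 9162 to 20989.5 CPM in WT and 12984 to 25090.1 CPM in 9S/T-A. In WT colon both genes were lowest in replicate 6 and highest in replicate 3. In 9S/T-A colon both were lowest in replicate 2, but Mptx2 was highest in replicate 5 and Mptx1 in replicate 6. Reads of Mptx1 may be counted at Mptx2, which leaves the colon level and the product of Mptx2 uncertain, and their part was not tested.

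Ceacam10, of the carcinoembryonic antigen family, and Cd177, a surface glycoprotein best known from neutrophils, lie close together on chromosome 7. Ceacam10 (ENSMUSG00000054169, chromosome 7, 24777204 to 24784649) was at 2.74, 7.18 and 18.9 CPM in WT SI versus 0.236, 0.487 and 0.765 CPM in 9S/T-A SI. In colon it was at 68.9, 75.9 and 85.9 CPM in WT versus 58.3, 73.2 and 95.5 CPM in 9S/T-A. The SI groups were apart and the colon groups overlapped, with a product of 4.0 (SE 0.45, adjusted p = 1.62e-05). The neighbouring Cd177 (ENSMUSG00000052212, chromosome 7, 24743985 to 24760311) fell from 6.85, 16.8 and 19.4 CPM to 1.49, 3.27 and 3.95 CPM in SI. Its colon levels of 211, 289.5 and 373 CPM in WT versus 188, 269 and 370.0 CPM in 9S/T-A overlapped, and the product was 2.24 (SE 0.34, adjusted p = 0.00149). With BC049730, these genes made 3 called genes between 24709259 and 24784649 on chromosome 7. BC049730 had too low a level in SI to count as measured there, at 0.0721, 0.376 and 0.482 CPM in WT versus 0.0212, 0.0402 and 0.0697 CPM in 9S/T-A, and its product was 2.86 (SE 0.52, adjusted p = 0.00807).

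Oxidases that release hydrogen peroxide or superoxide at the epithelial surface fell with them. Duox2, a dual oxidase (ENSMUSG00000068452, chromosome 2, 122279247 to 122298165), was at 15.2, 24 and 60.5 CPM in WT SI versus 4.96, 7.07 and 9.39 CPM in 9S/T-A SI, which did not overlap. The colon libraries stood at 91.2, 108 and 127 CPM in WT versus 108, 122 and 153 CPM in 9S/T-A. The log2 fold change was -2.18 for SI (SE 0.28, adjusted p = 2.42e-05) against 0.20 for colon (SE 0.26, adjusted p = 1), and the product 2.38 (SE 0.38, adjusted p = 0.00186). The neighbouring Duox1 and the NADPH oxidase gene Nox1, which together with Saa1 fall outside the rule for named genes and were picked after their values were seen, had products of 1.97 (SE 0.43, adjusted p = 0.0329) and 2.86 (SE 0.59, adjusted p = 0.0241). Saa1, an acute-phase protein, fell from 6.7 ± 3.98 to 1.19 ± 0.671 CPM in SI (mean ± SD, n = 6) and had 129.5 ± 57 and 124 ± 62 CPM in colon, a product of 2.45 (SE 0.56, adjusted p = 0.0462).

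The gene lists, here and below, were chosen with earlier results of these data known. Their counts set beside all genes therefore describe the lists and do not test them. In the list of epithelial host defence genes, 25 of 28 were tested and 5 had a called product, all positive (Ceacam10, Cd177, Duox2, Nox1 and Saa1), against 0.29% of all genes. The list's median log2 fold change was -0.78 in SI and -0.04 in colon. In SI 9 of the 25 fell, against 1.56% of all genes, and 0 rose. At an unadjusted p under 0.05, 15 were lower and 6 higher in SI, against 8.85% and 7.11% of all genes. In colon 0 of 25 passed with edgeR in either direction. At an unadjusted p under 0.05, 7 were higher in colon, against 3.49% of all genes, and 0 lower. Members without a called product included Nos2, inducible nitric oxide synthase, with 7.94 ± 11.4 CPM in WT SI versus 0.398 ± 0.375 CPM in 9S/T-A SI (mean ± SD, n = 6, product 4.19, adjusted p = 0.0939), and Reg3g, a C-type lectin, with 559.6 ± 289 and 158 ± 90.8 CPM in SI (product 1.15, adjusted p = 0.721). The count of 5 was 3 without 9S/T-A SI replicate 7, 3 without all libraries numbered 7, 4 in males, 0 in females and 9 with DESeq2, each sex having 3 libraries a group. In SI, the summed leukocyte genes given above were also lower at the median in 9S/T-A (72.3 CPM) than in WT (110.7 CPM), and their part in these results was not tested.

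The promoters of the 3 leading genes and of Sval1, which moved the other way, are shown with the bases that match an E-box searched as CAGCTG (its own reverse complement) or an inverted CCAAT box searched as ATTGG or CCAAT in capitals. They are the 200 bases before the RefSeq start site (GRCm38.p6), at chr1:173277757-173277956 (minus strand), chr7:24777004-24777203 (plus), chr2:122298228-122298427 (minus) and chr6:41951428-41951627 (plus), written 5′ to 3′.
Mptx2: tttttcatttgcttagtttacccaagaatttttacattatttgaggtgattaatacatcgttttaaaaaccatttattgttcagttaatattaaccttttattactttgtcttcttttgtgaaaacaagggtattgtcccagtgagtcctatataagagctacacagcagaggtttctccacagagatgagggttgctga
Ceacam10: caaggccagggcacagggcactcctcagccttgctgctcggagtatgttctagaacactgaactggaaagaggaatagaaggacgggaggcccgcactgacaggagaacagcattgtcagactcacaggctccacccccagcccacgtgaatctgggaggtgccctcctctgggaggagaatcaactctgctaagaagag
Duox2: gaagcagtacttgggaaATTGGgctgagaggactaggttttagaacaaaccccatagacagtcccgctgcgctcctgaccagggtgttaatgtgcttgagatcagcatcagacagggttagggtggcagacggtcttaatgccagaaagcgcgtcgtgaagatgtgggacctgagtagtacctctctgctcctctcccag
Sval1: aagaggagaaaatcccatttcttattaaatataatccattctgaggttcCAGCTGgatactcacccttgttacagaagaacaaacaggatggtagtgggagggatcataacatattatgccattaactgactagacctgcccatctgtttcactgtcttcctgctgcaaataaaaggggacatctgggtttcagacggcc
No CAGCTG lay in these windows of Mptx2, Ceacam10 and Duox2, and 1 lay 151 bases before the start of Sval1. Duox2 held ATTGG, 183 bases before its start. RefSeq held a promoter for 56 of the 74 called genes, and 10 of these 56 (17.9%) had CAGCTG in the window, against 9.70% of the 11420 promoters of all tested genes. By direction, the motif was in 6 of 40 promoters of genes with a positive product and in 4 of 16 with a negative product. Matches are letters in a window of fixed length and were not compared with binding data.

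**Figure D2:**
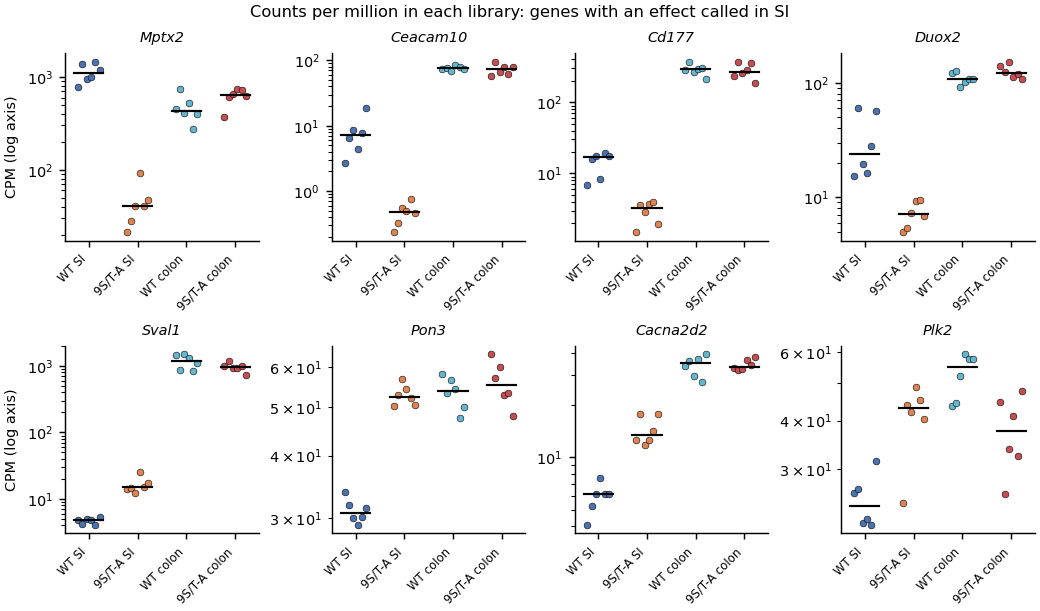
CPM in each library (log axis) of 4 genes that fell and 4 that rose in 9S/T-A SI, by group, with the median as a bar. The SI groups of Mptx2, Ceacam10, Cd177, Duox2, Sval1, Pon3 and Cacna2d2 do not overlap, those of Plk2 do, and all 8 genes overlap in colon.

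A4gnt and Muc4 also fell in SI. A4gnt, which adds N-acetylglucosamine to mucin O-glycans (ENSMUSG00000037953, chromosome 9, 99612502 to 99622367), was at 10.2, 12.3 and 18.1 CPM in WT SI versus 5.23, 6.16 and 9.54 CPM in 9S/T-A SI. In colon the direction was opposite, with 61.6, 76.7 and 89.6 CPM in WT versus 88.8, 104 and 153 CPM in 9S/T-A. Its product was 1.56 (SE 0.23, adjusted p = 0.00116), although the colon effect of 0.53 did not pass on its own (adjusted p = 0.228). Muc4, a membrane-bound mucin (ENSMUSG00000079620, chromosome 16, 32735886 to 32782391), was at 62.1, 69.9 and 100.3 CPM in WT SI versus 33.8, 44.8 and 49.7 CPM in 9S/T-A SI, which did not overlap. Muc4 libraries in colon were at 155, 195 and 221 CPM in WT versus 178, 239 and 329 CPM in 9S/T-A, and the product was 1.21 (SE 0.21, adjusted p = 0.00653). In the mucin O-glycosylation list, A4gnt was the 1 gene of 31 called, both in the product and in SI. Of all genes, 0.29% had a called positive product and 1.56% were called lower in SI. The list's median effect was 0.06 in SI and 0.02 in colon. In the goblet list 2 of 20 genes rose in SI and 0 fell, against 1.34% and 1.56% of all genes, with a median effect of 0.28. In colon 1 of the 20 rose and 0 fell, against 0.418% and 0.156% of all genes, with a median effect of 0.16. Muc2, the main secreted mucin of goblet cells (ENSMUSG00000025515, chromosome 7, 141690340 to 141754693), was not called, with a product of 0.17 (SE 0.22, adjusted p = 0.908). Its medians were 26314 and 35605 CPM in WT and 9S/T-A SI and 11842 and 17358 CPM in colon.

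Further genes of the group that fell in SI alone had low SI levels. Mfhas1 (ENSMUSG00000070056, chromosome 8, 35587798 to 35679449) was at 1.21, 1.65 and 2.09 CPM in WT SI versus 0.236, 0.501 and 0.727 CPM in 9S/T-A SI, while colon medians were 13.4 and 15 CPM (product 1.80, SE 0.26, adjusted p = 0.000887). Fmnl2, a formin that acts on actin (ENSMUSG00000036053, chromosome 2, 52857860 to 53134202), went from 0.929, 1.34 and 2.2 to 0.112, 0.255 and 0.498 CPM, with colon medians of 2.11 and 1.77 CPM (product 2.30, SE 0.37, adjusted p = 0.00191). Ecscr, known from endothelium (ENSMUSG00000073599, chromosome 18, 35713086 to 35722356) went from 0.701, 1.2 and 1.5 to 0.0925, 0.183 and 0.364 CPM, and in colon the medians were 3.28 and 3.61 CPM (product 2.49, SE 0.39, adjusted p = 0.00186). For each of these 3 genes the SI groups were apart and the colon groups overlapped. Pxdn, a peroxidase of the extracellular matrix (ENSMUSG00000020674, chromosome 12, 29938036 to 30017658), had 1.25, 4.84 and 7.1 CPM in WT SI versus 0.137, 0.256 and 0.637 CPM in 9S/T-A SI. Its colon means were under 1 CPM in both genotypes, and its product was 4.26 (SE 0.66, adjusted p = 0.00186).

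The list of Paneth cell genes held 5 called products among 22 tested, all positive, against 0.29% of all genes. No defensin gene of the list was called, and the products of the list ran from -1.54 to 5.06. Mptx2 has been described above. Its paralog Mptx1 (ENSMUSG00000026531, chromosome 1, 174330518 to 174332873) was at 81.8, 96 and 109 CPM in WT SI versus 45.8, 58.8 and 73.9 CPM in 9S/T-A SI, against 9162, 13680.4 and 20989.5 CPM in WT colon versus 12984, 19142 and 25090.1 CPM in 9S/T-A colon (product 1.16, SE 0.25, adjusted p = 0.0305). Reads that match both mucosal pentraxin genes were counted at 1 of them, which leaves the split between them uncertain. Mmp7, the protease that activates defensins, fell from 1047 ± 173 to 440.0 ± 161 CPM in SI (mean ± SD, n = 6), with a product of 2.1 (SE 0.45, adjusted p = 0.0318). The remaining members were the lipid-digesting pair Clps and Pnliprp2, whose effect was called in colon. Mmp7 and Pnliprp2 fall outside the rule for named genes and were picked after their values were seen. Lysozyme gene Lyz1 (ENSMUSG00000069515, chromosome 10, 117287796 to 117292868) was not called, at medians of 25737 and 24061 CPM in SI and 24.1 and 40.3 CPM in colon (product 0.80, SE 0.30, adjusted p = 0.315). Over the list the median effect was -0.44 in SI and 0.12 in colon. In SI 4 of the 22 fell and 1 rose, against 1.56% and 1.34% of all genes, and in colon 2 rose and 0 fell, against 0.418% and 0.156%. At an unadjusted p under 0.05, 10 products were positive and 3 negative, against 5.55% and 4.14% of all genes. In SI 11 were lower and 3 higher at that level, against 8.85% and 7.11% of all genes. The 5 calls dropped to 1 in females alone (median product 0.23, against 0.65 in all libraries), to 3 in males alone, to 3 without the libraries numbered 7, to 2 without WT SI replicate 3 or 5, 9S/T-A SI replicate 6 or WT colon replicate 4 or 6, and to 3 without WT SI replicate 6, 9S/T-A SI replicate 3, 4 or 7, WT colon replicate 2 or 5, or 9S/T-A colon replicate 4 or 6. Mptx1 lost its call when any of 6 single libraries was left out, and Clps for 9.

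Tac1 and Clca3b also fell in SI alone. Tac1, the substance P precursor that enterochromaffin cells make (ENSMUSG00000061762, chromosome 6, 7554879 to 7565834), was at 3.29, 8.02 and 11.8 CPM in WT SI versus 1.18, 2.22 and 6.54 CPM in 9S/T-A SI, against 1.03, 1.33 and 2.12 CPM in WT colon versus 1.95, 2.67 and 3.55 CPM in 9S/T-A colon. The groups overlapped in each tissue, and the product was 2.37 (SE 0.47, adjusted p = 0.0155). It was the 1 called gene of 27 in the enteroendocrine list, where 0.29% of all genes had a called positive product. The list's median effect was -0.65 in SI and -0.46 in colon. Chga, the granule protein chromogranin A, had a product of -0.55 (SE 0.38, adjusted p = 0.731). Clca3b, of the chloride channel regulator family (ENSMUSG00000037033, chromosome 3, 144822623 to 144849357), was at 363, 477 and 623 CPM in WT SI versus 165, 261 and 290.3 CPM in 9S/T-A SI, against colon medians of 192 and 202 CPM. The SI groups did not overlap. Its product of 1.10 (SE 0.24, adjusted p = 0.0319) lost its call when any of 9 single libraries was left out.

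Ear2, an eosinophil-associated ribonuclease gene on chromosome 14 (44102654 to 44103534), was listed in WT SI at between 249 and 825 counts a library and in 9S/T-A SI at 0 or 1. Colon libraries of both genotypes had between 0 and 2 counts. Its product was called (adjusted p = 0.0141), yet colon held too few counts to show any change. The paralogs Ear1 (43818765 to 43875517) and Ear10 (43922720 to 43923559), whose products were not called, followed the same counts, with 166 to 581 and 179 to 710 counts in WT SI and at most 1 in any other library. These genes were picked after their values were seen, and reads shared between paralogs make the split among them uncertain.

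Genes that rose in SI alone were led by Sval1, a seminal vesicle antigen-like gene. Sval1 (ENSMUSG00000029865, chromosome 6, 41951630 to 41956098) was at 4.1, 4.82 and 5.27 CPM in WT SI versus 12.1, 14.9 and 25.3 CPM in 9S/T-A SI. In colon it was abundant in both genotypes, at 849, 1202 and 1502 CPM in WT versus 726, 962 and 1183 CPM in 9S/T-A, which overlapped. The log2 fold change was 1.81 for SI (SE 0.17, adjusted p = 1.45e-07) against -0.30 for colon (SE 0.16, adjusted p = 0.8), a product of -2.11 (SE 0.23, adjusted p = 1.62e-05). Pon3, a lactonase of the paraoxonase family (ENSMUSG00000029759, chromosome 6, 5220852 to 5256286), was at 29.1, 30.8 and 33.8 CPM in WT SI versus 50.3, 52.4 and 56.9 CPM in 9S/T-A SI. The 9S/T-A SI libraries thus lay at the colon level, 47.6, 53.8 and 58.2 CPM in WT colon versus 48, 55.3 and 63.7 CPM in 9S/T-A colon. Its product was small and narrow in error, -0.70 (SE 0.09, adjusted p = 0.000467).

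Cacna2d2, an auxiliary subunit of voltage-gated calcium channels (ENSMUSG00000010066, chromosome 9, 107399612 to 107529343), rose from 4.08, 6.14 and 7.61 CPM to 11.9, 13.5 and 17.9 CPM in SI and stood at 27.3, 34.9 and 39.5 CPM in WT colon versus 32, 33.4 and 38.3 CPM in 9S/T-A colon. Its product was -1.28 (SE 0.18, adjusted p = 0.000528). Pcbp4, which binds poly(rC) RNA (ENSMUSG00000023495, chromosome 9, 106453291 to 106464012), rose from 2.71, 3.14 and 3.64 CPM to 6.08, 8.2 and 8.46 CPM in SI without overlap. The colon medians of Pcbp4 were 4.62 and 5.64 CPM, the same direction by a smaller amount, and the product was -0.94 (SE 0.18, adjusted p = 0.0141).

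Gm14207, a non-coding transcript (ENSMUSG00000074912, chromosome 2, 119321187 to 119326194), overlaps the start of Dll4 on the opposite strand. It was at 11.1, 14.3 and 16 CPM in WT SI versus 17.9, 20.1 and 22 CPM in 9S/T-A SI, apart, and at 10.4, 12.8 and 14.2 CPM in WT colon versus 9.97, 11.4 and 12.9 CPM in 9S/T-A colon, overlapping (product -0.67, SE 0.13, adjusted p = 0.0141). Dll4, the Notch ligand of secretory cells (ENSMUSG00000027314, chromosome 2, 119325784 to 119335962), rose in SI from 109, 119.5 and 146 to 131, 156 and 183 CPM and had 41.2, 48.2 and 58.9 CPM in WT colon versus 41.8, 45.4 and 50.8 CPM in 9S/T-A colon. The effect of Dll4 was 0.35 for SI (SE 0.09, adjusted p = 0.0369) against -0.08 for colon (SE 0.09, adjusted p = 1), but the product itself did not pass, at -0.43 (SE 0.13, adjusted p = 0.179). Paxx, a DNA end-joining factor (ENSMUSG00000047617, chromosome 2, 25455141 to 25461094), rose from a median of 17.8 to 23.1 CPM in SI, with colon medians of 12.2 and 9.82 CPM. Its product, -0.58 (SE 0.12, adjusted p = 0.0235), lost the call without WT SI replicate 3 and without 9S/T-A SI replicate 3 or 7. Under plain library totals the calls of Pcbp4, Gm14207, Paxx and Nt5c were lost.

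MHC class II genes gave the 3 largest products among called genes measured in both tissues, those of H2-Aa, Cd74 and H2-Eb1. Class II molecules present peptides to CD4+ T cells, and intestinal epithelium can express them. Cd74, the invariant chain that escorts class II molecules (ENSMUSG00000024610, chromosome 18, 60803848 to 60812646), was at 13.1, 33.3 and 198 CPM in WT SI versus 2.01, 5.82 and 32 CPM in 9S/T-A SI. In colon it was at 1.69, 5.35 and 8.75 CPM in WT versus 4.84, 77 and 463 CPM in 9S/T-A. Thus 5 of the 6 colon 9S/T-A libraries lay above all colon WT libraries, and 9S/T-A colon replicate 3 lay among them. Replicate 6 was the highest in 9S/T-A colon and replicate 7 the highest in WT SI. The log2 fold change was -2.26 for SI (SE 0.80, adjusted p = 0.137) against 4.54 for colon (SE 0.88, adjusted p = 0.0104), a product of 6.80 (SE 1.18, adjusted p = 0.00653).

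The class II chain genes H2-Aa, H2-Ab1 and H2-Eb1 and the H2-DM genes, whose products load peptides, lie between 34135182 and 34316199 on chromosome 17. H2-Aa (ENSMUSG00000036594, chromosome 17, 34282744 to 34287827) was at 1.38, 2.4 and 35.1 CPM in WT SI versus 0.578, 0.98 and 4.69 CPM in 9S/T-A SI, and at 0.23, 1.07 and 1.98 CPM in WT colon versus 1.5, 15.4 and 113 CPM in 9S/T-A colon (product 6.86, SE 1.28, adjusted p = 0.0111). H2-Eb1 (ENSMUSG00000060586, chromosome 17, 34305877 to 34316199) was at 2.55, 6.24 and 42.8 CPM in WT SI versus 1.55, 2.06 and 8.2 CPM in 9S/T-A SI, and at 0.751, 1.42 and 1.95 CPM in WT colon versus 0.88, 12.7 and 62.5 CPM in 9S/T-A colon (product 5.47, SE 1.06, adjusted p = 0.0141). For both, the same 9S/T-A colon replicate 3 overlapped the WT libraries. H2-Ab1 (ENSMUSG00000073421, chromosome 17, 34263209 to 34269418) was less uneven, with 52.7, 63.2 and 120.0 CPM in WT SI versus 46.9, 54.5 and 68.4 CPM in 9S/T-A SI. In colon it was at 6.11, 10.2 and 13.7 CPM in WT versus 15.6, 37.9 and 156 CPM in 9S/T-A. Every 9S/T-A colon library of H2-Ab1 exceeded every WT colon library, the SI groups overlapped, and the product was 2.72 (SE 0.53, adjusted p = 0.0141).

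Of 11 class II genes listed, 8 were tested and 7 had a called product (Cd74, H2-Aa, H2-Ab1, H2-DMa, H2-DMb1, H2-DMb2 and H2-Eb1), all positive, against 0.29% of all genes. The median effect of the 8 genes was -1.64 in SI and 2.88 in colon. In colon 5 rose, against 0.418% of all genes, and in SI none passed with edgeR. All 8 were lower in SI, 6 of them at an unadjusted p under 0.05, against 8.85% of all genes. Ciita, the transactivator of class II genes, had a product of 4.49 (SE 1.18, adjusted p = 0.101). The calls rest on few libraries: 1 of 8 was left without the libraries numbered 7, 3 of 8 without WT SI replicate 7 and 9S/T-A colon replicate 6 together, and 0 of 8 in either sex alone. The median product ranged from 2.73 to 4.33 over those 4 fits. Leukocytes express class II genes too. Ptprc, the pan-leukocyte marker CD45, was at most 1.16 CPM in WT colon versus 0.985 CPM in 9S/T-A colon, and the median sum of the leukocyte genes was 7.85 CPM and 6.48 CPM in those groups. In SI, Ptprc was at 3.05 to 9.74 CPM in WT and 1.79 to 8.80 CPM in 9S/T-A, and the median leukocyte sum was lower in 9S/T-A (72.3 CPM) than in WT (110.7 CPM). The part of leukocytes in the class II values was not tested.

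Class II promoters share an inverted CCAAT box, the Y box, and the promoters of H2-Aa and H2-Eb1, which moved together, are shown with the same capitals as before. These are 200 bases before the RefSeq start (GRCm38.p6) at chr17:34287824-34288023 (minus strand) and chr17:34305667-34305866 (plus).
H2-Aa: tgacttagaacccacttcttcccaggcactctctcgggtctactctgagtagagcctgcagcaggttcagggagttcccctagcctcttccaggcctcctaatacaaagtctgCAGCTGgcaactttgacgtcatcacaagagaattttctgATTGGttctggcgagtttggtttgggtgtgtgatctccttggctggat
H2-Eb1: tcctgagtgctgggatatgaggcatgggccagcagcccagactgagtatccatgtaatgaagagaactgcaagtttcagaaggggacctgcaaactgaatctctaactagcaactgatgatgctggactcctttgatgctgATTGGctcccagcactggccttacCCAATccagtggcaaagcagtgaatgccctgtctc
ATTGG began 48 bases before the start of H2-Aa and 59 before that of H2-Eb1, and H2-Eb1 had a CCAAT 35 bases before it. H2-Aa also held CAGCTG, 87 bases before its start. ATTGG or CCAAT was in 22 of the 56 promoters of called genes (39.3%), against 33.0% of all 11420.

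**Figure D3:**
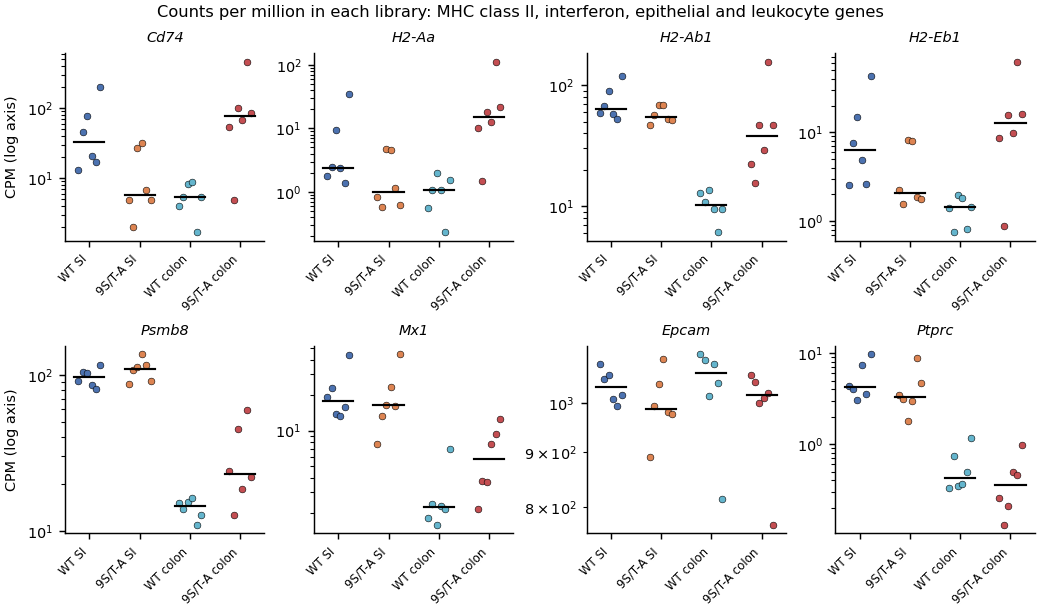
CPM in each library (log axis) of 4 MHC class II genes, the interferon-inducible Psmb8 and Mx1, the epithelial gene Epcam and the leukocyte gene Ptprc, by group, with the median as a bar. Class II genes are high in 5 of 6 9S/T-A colon libraries and low in WT colon, while Ptprc stays at or under 1.16 CPM in every colon library.

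Interferon-response genes had a positive median product, and no single product passed in the main fit. Of 40 tested, edgeR called the product in 0 and DESeq2 in 0, while 16 had an unadjusted p under 0.05, all positive (5.55% of all genes had a positive product at that level). The median product was 0.90, made up of -0.15 in SI and 0.74 in colon. All 40 had a positive colon effect, of which 19 had an unadjusted p under 0.05 (3.49% of all genes) and 1, Psmb8, an immunoproteasome subunit, an adjusted p under 0.05. Psmb8 was at 11 to 16.2 CPM in WT colon and 12.6 to 59.4 CPM in 9S/T-A colon, with the 2 highest values in replicates 6 and 4, and its product was 0.95 (SE 0.34, adjusted p = 0.279). The list median was 0.80 without the libraries numbered 7, and it was 0.33 in females and 1.42 in males.

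Fat-digesting enzymes rose in colon alone. Clps, the colipase that anchors lipase to fat droplets (ENSMUSG00000024225, chromosome 17, 28558210 to 28560766), was at 40.7, 48.8 and 62.9 CPM in WT colon versus 88.3, 115 and 142 CPM in 9S/T-A colon, which did not overlap. In SI it was at 652, 1006 and 1044 CPM in WT versus 967, 1194 and 1495 CPM in 9S/T-A, which overlapped. The effect was 0.31 for SI (SE 0.13, adjusted p = 0.234) against 1.19 for colon (SE 0.13, adjusted p = 1.4e-05), and the product 0.88 (SE 0.19, adjusted p = 0.0305). Pnliprp2, a lipase of the pancreatic lipase family, had 3.52 ± 1.08 and 9.24 ± 6.06 CPM in WT and 9S/T-A colon (mean ± SD, n = 6) and 508 ± 128 and 361 ± 72.2 CPM in SI, with a product of 1.88 (SE 0.42, adjusted p = 0.0432). With library number as a replicate block in edgeR, Pnliprp2 lost its call (adjusted p = 0.055).

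Gm27162 and Ncald were called in colon alone, in opposite directions. Gm27162, a long non-coding RNA (ENSMUSG00000099025, chromosome 9, 32904937 to 32928966), was at 0.0157, 0.0814 and 0.0986 CPM in WT colon versus 0.196, 0.351 and 0.619 CPM in 9S/T-A colon, apart but under 1 CPM, and at 3.53, 6.26 and 8.82 and 2.39, 4.03 and 5.06 CPM in WT and 9S/T-A SI (product 3.02, SE 0.43, adjusted p = 0.000623). Ncald, a neuronal calcium sensor (ENSMUSG00000051359, chromosome 15, 37366175 to 37792570), fell in colon from 49.1, 57.4 and 65 to 30.6, 38.2 and 47.6 CPM without overlap. In SI it was at 37.7, 41.5 and 43.5 CPM in WT versus 39.5, 48.9 and 54.3 CPM in 9S/T-A, and the product was -0.80 (SE 0.15, adjusted p = 0.00825). Alox15, a lipoxygenase whose effect was called in SI, was at low levels, at no more than 0.319 CPM in any SI library and 0.963 CPM in any colon library. Its counts summed to 34 over the 6 WT SI libraries and 3 over the 6 9S/T-A SI libraries, so its fold rests on few reads (product 5.37, SE 0.99, adjusted p = 0.00978).

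Lamb1, a laminin chain, Apol10a, an apolipoprotein L, and Oxtr, the oxytocin receptor, rose in colon alone and were picked after their values were seen. Lamb1 had 6.74 ± 1.79 and 17.5 ± 3.12 CPM in WT and 9S/T-A colon and 18.8 ± 3.51 and 19.3 ± 5.29 CPM in SI (mean ± SD, n = 6; product 1.34, SE 0.27, adjusted p = 0.0205). Apol10a was at 3.17, 10.5 and 16.4 CPM in WT colon versus 18.6, 32.8 and 40.6 CPM in 9S/T-A colon, with no overlap, and its product was 2.15 (SE 0.49, adjusted p = 0.0446). With library number as a replicate block in edgeR, this call was lost (adjusted p = 0.0575). Apol10a lies with the called genes Apol10b and Apol11b between 77477047 and 77643286 on chromosome 15, and reads shared among these paralogs make their split uncertain. Oxtr was at 0.231, 0.271 and 0.585 CPM in WT colon versus 0.834, 1.05 and 1.75 CPM in 9S/T-A colon, with at most 0.219 CPM in SI (product 3.39, SE 0.65, adjusted p = 0.0139).

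The rule for opposite effects, an unadjusted p under 0.05 in each tissue with opposite signs in genes measured in both, was met by 19 called genes. The 8 of them with the smallest p of the product were named, which are Cd74, H2-Aa, H2-Eb1, A4gnt, Muc4, Plk2, Nt5c and Upb1. The last 3 had the reverse order, higher in 9S/T-A SI and lower in 9S/T-A colon. Plk2, a Polo-like kinase induced by stress (ENSMUSG00000021701, chromosome 13, 110395044 to 110400844), was at 21.6, 24.2 and 31.5 CPM in WT SI versus 24.5, 43 and 48.7 CPM in 9S/T-A SI, with 9S/T-A SI replicate 2 inside the WT range. In colon it was at 43.5, 54.9 and 59.3 CPM in WT versus 25.9, 37.5 and 47.8 CPM in 9S/T-A, and the product was -1.19 (SE 0.21, adjusted p = 0.00778). Upb1, an enzyme of pyrimidine breakdown (ENSMUSG00000033427, chromosome 10, 75406911 to 75441679), was at 20.6, 26.2 and 31 CPM in WT SI versus 28.6, 45.2 and 52 CPM in 9S/T-A SI, against 19.3, 25.3 and 34.5 CPM in WT colon versus 16.9, 18.5 and 23.1 CPM in 9S/T-A colon. The groups overlapped in each tissue, with a product of -1.15 (SE 0.22, adjusted p = 0.0126). Nt5c, a nucleotidase (ENSMUSG00000020736, chromosome 11, 115490420 to 115491862), moved least of these 8, from 84.1, 93.3 and 100.1 to 98.3, 107 and 113 CPM in SI and from 89.9, 95.1 and 99.9 to 74.2, 77.4 and 85.5 CPM in colon, where the genotypes were apart. Its log2 fold change was 0.20 for SI (SE 0.06, adjusted p = 0.0661) against -0.26 for colon (SE 0.06, adjusted p = 0.0322), and its product -0.46 (SE 0.08, adjusted p = 0.00807).

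Cell-cycle lists had lower medians in 9S/T-A SI and higher medians in 9S/T-A colon, with no single gene called in the main fit, which took no account of library number. With number as a replicate block, a pairing that no label gives, 12 of 35 DNA replication and 11 of 30 mitosis genes had a called positive product. These counts depended on single numbers. Without number 2 they were 26 and 22, without number 6 they were 0 and 2, and without number 7 they were 1 and 1. In the DNA replication list 35 genes were tested, and their median effect was -0.35 in SI and 0.32 in colon. In the mitosis list 30 genes were tested, with medians of -0.40 in SI and 0.37 in colon. All 65 products were positive, and edgeR called 0 of them (unadjusted p under 0.05 in 32 of 35 and 27 of 30, against 5.55% of all genes), while DESeq2 called 1 of 35 and 4 of 30. In SI 16 of 35 and 12 of 30 were lower at an unadjusted p under 0.05, a level that 8.85% of all genes reached. In colon 16 of 35 and 7 of 30 were higher at that level, against 3.49% of all genes. The median product of the DNA replication list was 0.38 in females alone and 0.90 in males alone, and that of the mitosis list 0.61 and 0.88. Genes of the cell cycle rise and fall together, so they are not independent of each other.

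Averaged over the list, the DNA replication genes were at 4.01 ± 0.20 in WT SI versus 3.67 ± 0.28 in 9S/T-A SI (mean log2 CPM ± SD, n = 6), and at 3.19 ± 0.25 in WT colon and 3.51 ± 0.35 in 9S/T-A colon. The mitosis genes were at 4.09 ± 0.25 and 3.69 ± 0.33 in SI and at 2.97 ± 0.37 and 3.33 ± 0.39 in colon, in the same order. The genotypes overlapped in both tissues for both lists. In SI, 9S/T-A replicate 2 had the highest value of its group in both lists and WT replicate 2 the lowest of its group. Mki67, the proliferation marker Ki-67 (ENSMUSG00000031004, chromosome 7, 135689788 to 135716379), was at 77.4, 95.9 and 120.1 CPM in WT SI versus 65.9, 75.8 and 90.5 CPM in 9S/T-A SI, and at 26.5, 35.6 and 50.8 CPM in WT colon versus 33.3, 53 and 63.3 CPM in 9S/T-A colon. The product of Mki67 was 0.76 (SE 0.21, adjusted p = 0.127).

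**Figure D4:**
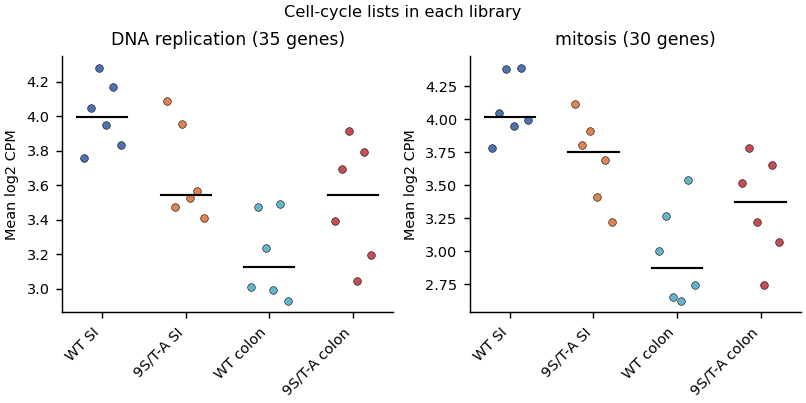
Mean log2 CPM of the DNA replication list (35 genes) and of the mitosis list (30 genes) in each library, by group, with the median as a bar. The 9S/T-A libraries lie lower than WT at the median in SI and higher in colon, and the genotypes overlap in each tissue.

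No product was called by the main fit in 13 of the 19 lists, which include the cell-cycle and interferon lists. Of their 344 genes tested, 111 had an unadjusted p under 0.05, a level reached by 9.69% of all genes, and DESeq2 called 6. The median product was -0.17 in the goblet list (0 of 20 called), 0.04 in the Notch pathway list (0 of 34), -0.0018 among regulators of the secretory lineage (0 of 32), 0.01 among regional identity genes (0 of 31) and 0.12 in the ER folding list (0 of 40). Tuft cell genes had a median effect of -0.84 in SI and -0.47 in colon (0 of 16 called), and the stem cell list -0.17 and -0.02 (1 of 22 called, Clca3b, against 0.412% of all genes). Lipid absorption genes had a median product of -0.38 (0 of 20 called), from a median effect of 0.23 in SI and -0.17 in colon. Of these 20, 7 had an unadjusted p under 0.05 with a negative product and 1 with a positive product, against 4.14% and 5.55% of all genes, and 18 products were negative. The absorptive brush border list had a median product of -0.25 (0 of 28 called). Over all 17953 genes the median product was -0.02.

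**Figure D5:**
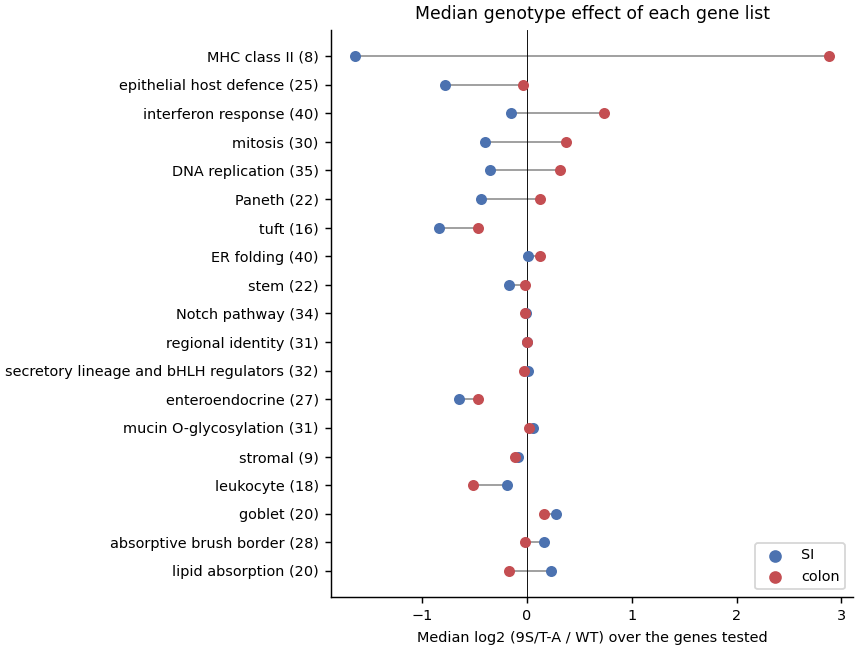
Median log2 fold change of 9S/T-A over WT in SI and in colon for each of the 19 gene lists, with the number of genes tested in brackets. MHC class II is farthest apart (-1.64 in SI, 2.88 in colon), and the host defence, interferon and cell-cycle lists also have a colon median above the SI median.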

How the data were processed

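RNA of sorted cells from 24 mouse samples was sequenced with a stranded mRNA kit. The deposited values are raw read counts per gene, which the authors made by aligning with TopHat2 2.1.1 to GRCm38.p3 and counting stranded exonic reads with featureCounts (Subread 1.5.2). Only primary alignments were counted, so counts of near-identical paralogs are uncertain. Totals were 36 to 65.8 M counts, and no pair of the 60 same-group pairs of libraries was identical. Of 45513 genes, 44671 identifiers matched a symbol in GENCODE M21.

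Groups were taken from the labels. Genes were filtered by group with filterByExpr, scaled with TMM and fitted with group means in edgeR 4.0.16 (R 4.3.3), and the product contrast was tested with the quasi-likelihood test. SEs are the absolute log2 fold change divided by the square root of F. All p-values were adjusted by Benjamini-Hochberg over all genes tested. The biological coefficient of variation was 20.2%. DESeq2 1.42.0 and limma 3.58.1 (voom) served as alternatives. The test was checked on simulated counts. Named genes were the 10 with the smallest p in each direction measured in both tissues, the first 8 with opposite effects, up to 4 not measured in both, those with the smallest p called by the block alone, the called members of each list with the smallest p, and 8 reference genes. The members, rule and lists were chosen with earlier results of these data known.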

Additional observations from a re-analysis of the deposited data

Results flagged for a closer look

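For 31 named genes the genotype effect differed between SI and colon by edgeR's quasi-likelihood test of the product (Benjamini-Hochberg adjusted p under 0.05), and each is given here with its product on the log2 scale. Effects called in SI alone with a positive product were those of Mptx2 (5.06), Ceacam10 (4.0), Mfhas1 (1.80), A4gnt (1.56), Cd177 (2.24), Ecscr (2.49), Duox2 (2.38), Fmnl2 (2.30), Muc4 (1.21), Pxdn (4.26), BC049730 (2.86), Alox15 (5.37), Mptx1 (1.16), Tac1 (2.37) and Clca3b (1.10). Those called in SI alone with a negative product were Sval1 (-2.11), Pon3 (-0.70), Cacna2d2 (-1.28), Plk2 (-1.19), Upb1 (-1.15), Pcbp4 (-0.94), Gm14207 (-0.67) and Paxx (-0.58). Effects called in colon alone had a positive product in Cd74 (6.80), H2-Aa (6.86), H2-Eb1 (5.47), Gm27162 (3.02), Clps (0.88) and H2-Ab1 (2.72), and a negative product in Nt5c (-0.46) and Ncald (-0.80).

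Among the named genes, 18 of 188 groups of 6 libraries (9.57%) had a highest or lowest library whose distance to the nearest other library was, as a share of the group's range, past Dixon's 95% critical value, where chance gives about 1 in 20 groups. These groups are not independent, since the class II genes share libraries that stand apart. WT SI replicate 7 was the highest or lowest for Cd74 (198 CPM), H2-Aa (35.1 CPM), H2-Eb1 (42.8 CPM), Mx1 (43.7 CPM), Ceacam10 (18.9 CPM), Mpst (29.8 CPM) and Clps (652 CPM). 9S/T-A colon replicate 6 was the highest for Cd74 (463 CPM), H2-Aa (113 CPM), H2-Eb1 (62.5 CPM), H2-Ab1 (156 CPM) and Pxdn (1.19 CPM). Replicate 7 also stood apart for Mx1 in WT colon (6.95 CPM) and for Muc2 in 9S/T-A colon (11357 CPM). The remaining values were Mptx2 in 9S/T-A SI replicate 5 (92.4 CPM) and 9S/T-A colon replicate 2 (373 CPM), Plk2 in 9S/T-A SI replicate 2 (24.5 CPM), and Chga in 9S/T-A colon replicate 3 (21.9 CPM). The part of depth, sorting or the animals in these values was not tested.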

How the results depend on the processing

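The count of 74 called genes was within 1.5 times under RLE factors (74), plain totals (73), no filter on low counts (70), a filter on the mean at 10 counts (81), sex added to the model (108), males alone (57), without number 2 (81), and without WT SI replicate 7 and 9S/T-A colon replicate 6 together (52). It was 136 at an adjusted p under 0.1, 257 with DESeq2, 3 in females alone and 43 without number 7, the last 2 resting on fewer libraries. Leaving out 1 library at a time gave 50 to 112, with 112 without 9S/T-A SI replicate 2. The settings without number 2, without number 7 and without that pair of libraries were chosen after seeing the data.

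With number as a replicate block, edgeR called 342 genes (227 positive and 115 negative, 71 of them among the 74, all but Cxcl13, Pnliprp2 and Apol10a), and limma voom with number as a random block 313. Leaving out 1 number at a time under the block gave 82 to 790, with 187 without number 5 and 790 without number 2. SI and colon libraries with 1 number in 1 genotype correlated in their deviations from group means at 0.083 to 0.545, with means of 0.199 in WT and 0.263 in 9S/T-A, against -0.0377 and -0.0517 between other numbers. Of the 12 comparisons 10 were over 0.1, and 7 correlated best with their own number. The design text says that both tissues were taken from each mouse, and titles share numbers. Libraries of 1 number and tissue but different genotypes, and so of different mice, also correlated on average, though unevenly. Their means were 0.144 in SI and 0.293 in colon, and number 7 reached 0.497 in SI and 0.743 in colon. The lowest were -0.0094 in SI and 0.017 in colon, and 3 comparisons in SI and 5 in colon were over 0.1. Numbers also share sex, and what else they share was not tested. The rule for pairing asked for all 12 comparisons of SI with colon to be over 0.1, and no label ties a number to a mouse, so the fit without the block was reported. Under the block, 12 of 35 DNA replication, 11 of 30 mitosis, 3 of 40 interferon and 11 of 25 host defence genes had a called positive product. With number 2 left out, the first 2 counts were 26 and 22, and with number 6 left out they were 0 and 2. The genes with the smallest p among those called under the block alone were Gsdmc4, Mx1, Aspm, Slfn9 and Steap2 with a positive product and Tst, Inpp4b, Glt1d1, Mpst and Klk1b24 with a negative product.

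All 31 named calls kept their direction under every setting run. The product of Atoh1, close to 0, turned sign without number 2 (-0.075, and -0.082 with the replicate block), without number 6 under the block (-0.0037), and without 9S/T-A colon replicate 4 (-0.034), 9S/T-A SI replicate 2 (-0.024), WT colon replicate 6 (-0.010) or 7 (-0.0046), or WT SI replicate 2 (-0.042). Its range over fits without 1 library was -0.042 to 0.12. That of Muc2 turned without number 2 (-0.039, and -0.054 with the block). The cause was not tested. Females alone kept 3 of the 31 calls and males alone 18. Low counts limit Ear2, Gm27162 and BC049730, for which 1 tissue held few reads, and Alox15, which was under 1 CPM in every library. Oxtr was also low in SI, at no more than 0.219 CPM.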
